A study of Caligus rogercresseyi with 6 samples.

Results

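Caligus rogercresseyi is a parasitic copepod, a sea louse, that lives on farmed salmon. Its copepodid is the free-swimming larva that finds and grips a host, and after settlement it moults into the chalimus, a larva anchored to the host by a filament. Copepodids of sea lice do not feed before they settle and live on yolk laid down in the egg, whereas chalimi and adults feed on the host. The 73 transcript contigs described here were counted almost wholly in copepodids, yet not in copepodids alone, and make up 0.909% of the 8034 contigs with enough counts to qualify. A contig is a transcript sequence assembled from reads, and its count is the number of reads assigned to it.

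Transcript counts came from RNA-seq of whole wild-type animals, with 1 library for each of egg, copepodid, chalimus, adult female and adult male (called females and males from here on). Each library was made from RNA of pooled samples, which the labels trace to farmed Atlantic salmon. A further file, labelled adult with no sex, had a total equal to that of females and males together, with a difference of 0 counts, and served only to see how counts changed on recounting. The smallest total was that of copepodid, 78380827 counts, and the largest that of females, 149426248. In ratios 3 counts stood in for a 0, and 3 counts corresponded to between 0.0201 and 0.0383 CPM (counts scaled to a library total of 1000000). With 1 library per group there was no replicate and no test. Every interval below is a 95% exact (Clopper-Pearson) interval that covers counting error only.

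A contig was a member when copepodid held 90% or more of its CPM summed over the 5 libraries, when it had 500 or more copepodid counts, and when it had 10 or more counts over egg, chalimus, female and male. The members were thus chosen by these measured CPM and counts, and the height of their copepodid level is a description, with no test. Of all 44089 contigs, 9550 had 500 or more copepodid counts. Of those, 1516 had under 10 counts elsewhere and were left out, 1438 of them with 0 counts elsewhere. Another 7961 had a copepodid share under 90%, with a median share of 14.1%. The share depended on scaling, since trimmed mean of M-values (TMM) factors lower the effective copepodid total. With TMM factors 123 contigs met the rule and with DESeq2 size factors 128 did, and both sets held all 73 members. The share also depended on which of several similar contigs received the reads, and 16 members fell under 90% when counted together with a neighbouring contig, as described further on.

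**Figure D1:**
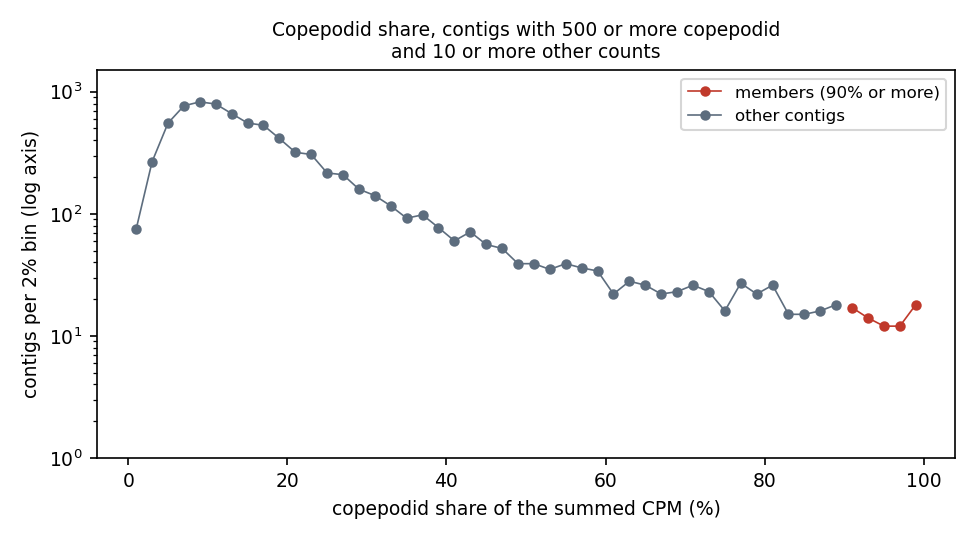
Number of contigs (log axis) in each 2% bin of copepodid share, among the 8034 contigs with 500 or more copepodid and 10 or more other counts. The 73 members, at the right, continue the tail of the distribution without a gap, and the other contigs have a median share of 14.1%.

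No separate class began at 90%. The 3 members closest above the limit were GAZX01036334 with a share of 90.2%, GAZX01020010 with 90.4% and GAZX01014158 with 90.6%. Just below it stood GAZX01013950 with 89.9%, GAZX01024138 with 89.8% and GAZX01010468 with 89.7%. Of these, GAZX01013950 (456 nt) was abundant, at 1.90 CPM in egg, 314 CPM in copepodid, 23.2 CPM in chalimus, 0.281 CPM in females and 9.88 CPM in males. Within the set 17 members had shares from 90% to 92%, 22 from 92% to 95%, 16 from 95% to 98%, 11 from 98% to 99% and 7 above 99%.

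The contigs carry identifiers without gene names. Lists of cuticle, muscle, chemosensory, nervous system, peptidase and yolk genes could therefore be applied to none of them, and no function is given below. Nor could the copepodid label be set against marker genes.

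The members were of low to moderate abundance. Together they held 0.493% of the copepodid counts (0.491% to 0.494%), and 27.8% of that sum came from 1 contig, GAZX01024317. Their summed level was 114 CPM in egg, 4928 CPM in copepodid, 125 CPM in chalimus, 25.4 CPM in females and 27.0 CPM in males. GAZX01024317 made up 52.0% of that sum in chalimus, 55.5% in females and 42.7% in males. Without it the sums were 87.7 CPM in egg, 3557 CPM in copepodid, 60.1 CPM in chalimus, 11.3 CPM in females and 15.5 CPM in males, so that egg stood above chalimus. In RNA of whole animals, fewer cells of a type and less RNA per cell cannot be told apart. Medians over the 73 contigs were 0.265, 14.9, 0.189, 0.0468 and 0.0691 CPM in the same order. The median copepodid level of the 7961 other contigs was 20.3 CPM. No member was among the 100 contigs with the most copepodid counts, and 11 were among the first 1000. On the length-corrected scale (FPKM, counts scaled to contig length and library size) 1 member was among the first 100 and 14 among the first 1000.

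**Figure D2:**
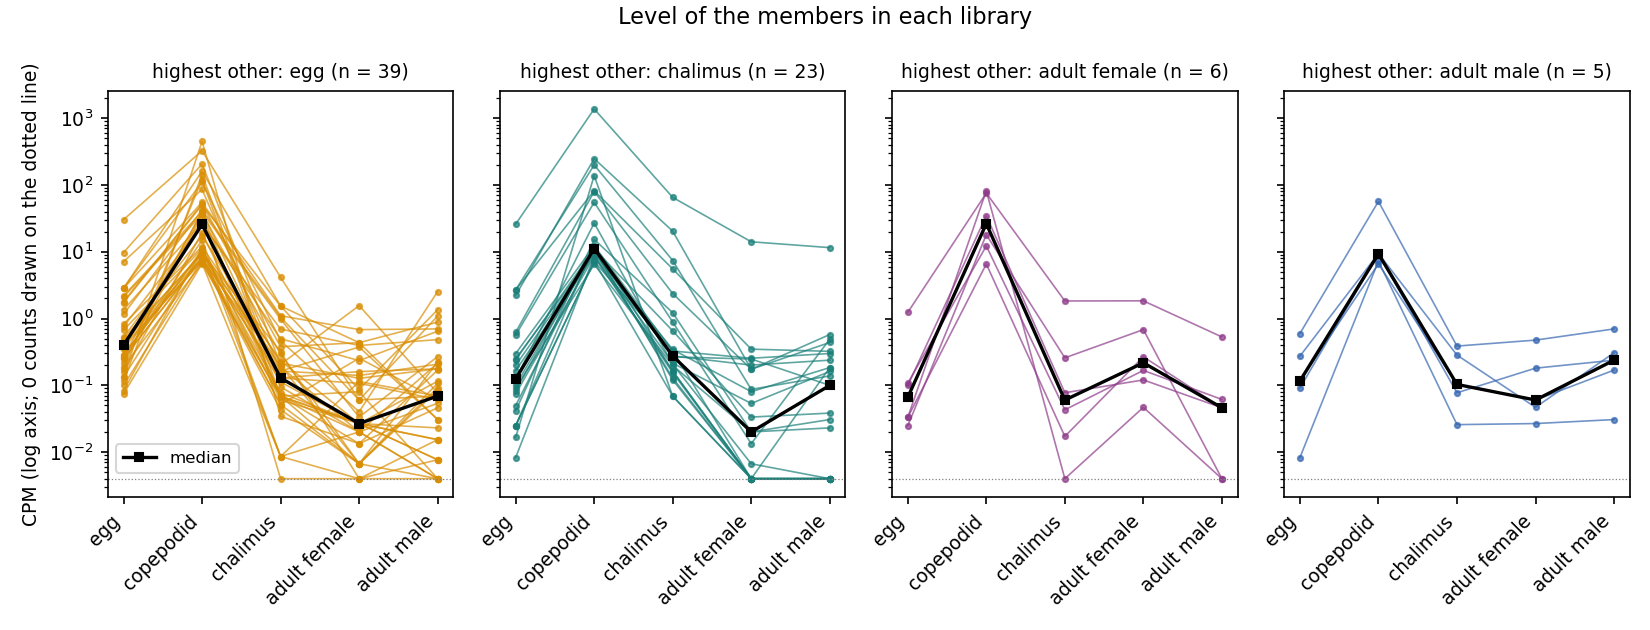
CPM (log axis) of each of the 73 members in the 5 libraries, in 4 panels by the library outside copepodid in which the member was highest. Coloured lines are contigs and the black line is the panel's median. Every line peaks at copepodid, which the rule fixes, and the lines differ in how the rest is divided.

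The most abundant member, GAZX01024317 (715 nt), stood at 25.8 CPM in egg, 1371 CPM in copepodid, 65.1 CPM in chalimus, 14.1 CPM in females and 11.5 CPM in males. It was well counted in every library, with 1500 counts even in males. The copepodid level was 21.1-fold that of chalimus, the next highest (20.6 to 21.6). Per length it also led the set, at 1897 FPKM in copepodid, which ranked 80 among all contigs.

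GAZX01009589 (794 nt) was next and of another kind. It had 16 counts in egg, 35164 in copepodid, 4 in chalimus, 2 in females and 6 in males. Its share of 99.9% was the highest in the set, and its FPKM of 559 in copepodid was second to GAZX01024317. Everything it showed outside copepodid amounted to 28 counts.

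GAZX01020010 (1205 nt) was the member with the highest egg level. It stood at 30.2 CPM in egg, 325 CPM in copepodid and 4.14 CPM in chalimus, but had 9 counts in females and 9 in males. The egg, copepodid and chalimus libraries thus carried nearly all of it. The copepodid level was 10.7-fold the egg level (10.4 to 11.1).

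GAZX01015330 (705 nt) leaned the other way, to the attached larva, with 2.21 CPM in egg, 247 CPM in copepodid and 20.3 CPM in chalimus. It had 26 counts in females and 57 in males. GAZX01003625 (686 nt) was alike, at 2.68 CPM in egg, 199 CPM in copepodid, 7.38 CPM in chalimus, 0.0870 CPM in females and 0.138 CPM in males. For both, chalimus was the next library after copepodid, and both were below 0.5 CPM in either sex. GAZX01015330 had a neighbour of equal length, described below, that changes how its share reads.

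GAZX01039997 (831 nt) stood at 9.70 CPM in egg and 207 CPM in copepodid, against 0.206 CPM in chalimus. It returned in females, at 1.56 CPM (233 counts), and had 10 counts in males. Apart from copepodid, it was thus mainly an egg contig. GAZX01038594 (2652 nt) was spread more evenly, at 2.84 CPM in egg, 161 CPM in copepodid, 1.54 CPM in chalimus, 0.435 CPM in females and 0.883 CPM in males.

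The remaining 3 of the 10 most abundant members were nearly confined to copepodid. GAZX01009990 (713 nt) had 11169 counts there, against 14 in egg, 11 in chalimus, 3 in females and 0 in males. GAZX01023302 (2541 nt) had 10802, against 2 in egg, 8 in chalimus and 0 in both adults. GAZX01017641 (811 nt) had 9434, against 21 in egg, 8 in chalimus, 1 in females and 11 in males.

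Counts elsewhere were not a fixed fraction of the copepodid count, even among the members most confined to copepodid. GAZX01009589 had 796 counts elsewhere for every 1000000 copepodid counts, GAZX01023302 had 926, GAZX01030516 (439 nt) had 1721, GAZX01009990 had 2507 and GAZX01017641 had 4346. These values rest on 10 to 41 counts elsewhere and have no interval, and small differences among them are not read. The rule's minimum of 10 counts elsewhere also keeps them from being lower. Among contigs left out for having 0 counts elsewhere, the highest copepodid count was 36153. GAZX01030516 itself had 4 counts in egg, 6392 in copepodid, 0 in chalimus, 7 in females and 0 in males.

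Outside copepodid the counts lay mainly in egg and chalimus. Egg was the highest other library for 39 of the 73 members (53.4%), chalimus for 23 (31.5%), females for 6 (8.22%) and males for 5 (6.85%). Among the 7961 other contigs the same shares were 40.6% for egg, 13.6% for chalimus, 27.6% for females and 18.2% for males. An adult was the highest other library in 11 of the 73 members. With 1 library per stage these percentages have no replicate check. In 39 members (53.4%) both egg and chalimus stood above both adults, against 21.3% of the other contigs.

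Most members were detected widely. Of the 73, 55 had at least 1 count in each of the 4 other libraries, 9 in 3 of them, 8 in 2 and 1 in 1. Of them, 20 had 10 or more counts in each. Egg was the 1 library with no member at 0, whereas 2 members were at 0 in chalimus, 11 in females and 15 in males. The member counted in 1 other library was GAZX01019747 (602 nt), with 26 counts in egg, 2774 in copepodid and 0 in chalimus, females and males.

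Members at 0 counts in both sexes numbered 8. Their counts elsewhere ranged from 10 to 28, and their shares from 97.3% to 99.9%. Besides GAZX01019747 and GAZX01023302 they included GAZX01038565 and GAZX01038566, which carry consecutive identifiers, and GAZX01038562 close by. GAZX01038565 (707 nt) had 9 counts in egg, 672 in copepodid and 19 in chalimus. GAZX01038566 (1561 nt) had 6, 820 and 15 in the same stages, and GAZX01038562 (1588 nt) had 10, 876 and 14. All 3 had 0 counts in females and males and somewhat more counts in chalimus than in egg. GAZX01038562 was singled out after its values were seen.

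The other run of consecutive identifiers was GAZX01039571, GAZX01039572 and GAZX01039573. GAZX01039571 (541 nt) stood at 1.15 CPM in egg, 42.4 CPM in copepodid, 1.05 CPM in chalimus, 0.0602 CPM in females and 1.09 CPM in males. GAZX01039572 (535 nt) was almost the same, at 1.73, 50.4, 1.53, 0.0870 and 1.35 CPM in that order. GAZX01039573 (459 nt) had 0.564, 54.8, 0.885, 0.0134 and 0.491 CPM. In each of the 3, the female library was the lowest of the 5, with 9, 13 and 2 counts against 142, 176 and 64 in males.

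Egg and chalimus, the libraries before and after copepodid in this series, were compared directly, since the rule did not set their ratio. Of the 29 members with 50 or more counts in either library, 2 were at least 4-fold higher in chalimus, where 15.1% of all contigs tested were, and 8 (27.6%) stood 4-fold or more lower in chalimus, against 12.3% of all contigs. These counts are descriptions, because 11 of the 29 reached 50 counts in egg alone and 2 in chalimus alone, and of the 8 called lower 6 had under 50 counts in chalimus. Among all contigs tested most, 18811 of 23441, reached 50 counts in both. Exact intervals for the members' percentages were wide, from 12.7% to 47.2% for those lower in chalimus. Over all contigs tested, chalimus over egg had a median log2 ratio of -0.29 with library totals, -0.04 with TMM and 0.07 with DESeq2 size factors. With DESeq2 size factors 4146 of all contigs were called higher and 2205 lower in chalimus, against 3543 and 2886 with library totals. Among the 128 contigs that met the rule with those factors, 10 of 83 were higher and 22 lower.

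**Figure D3:**
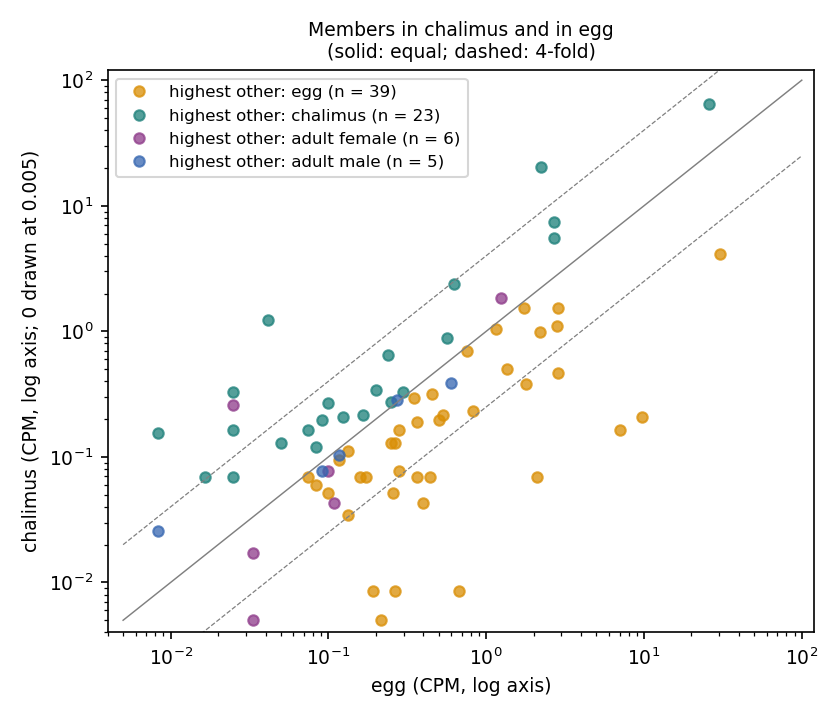
CPM of the 73 members in chalimus (vertical, log axis) against egg (horizontal, log axis), coloured by the highest library outside copepodid. Dashed lines mark 4-fold differences. Members lie on both sides of the line of equality, with 8 called lower and 2 called higher in chalimus.

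The 2 members higher in chalimus were GAZX01032058 (535 nt) and GAZX01015330. GAZX01032058 had 142 counts in chalimus against 5 in egg, a 29.5-fold ratio (12.3 to 92.1), with 1199 counts in copepodid and 3 in each adult. For GAZX01015330 the ratio was 9.18 (8.09 to 10.5), but summed with its neighbour of equal length, GAZX01015329, it was 2.39 (2.32 to 2.45) and no longer past 4-fold. Summing also worked the other way. GAZX01036334 had a ratio of 2.07, and summed with its neighbour GAZX01036332 it was 6.47 (5.77 to 7.27), past 4-fold. Among those lower in chalimus, GAZX01021351 (428 nt) had 1 count in chalimus against 81 in egg, and the egg level was 78.1-fold that of chalimus with an interval of 13.6 to 3121. GAZX01039997 had 24 counts in chalimus against 1171 in egg, and there the egg level was 47.0-fold (31.5 to 73.7). GAZX01032825 (1154 nt) was similar, with 19 counts in chalimus against 855 in egg. It also had 6735 counts in copepodid, 56 in females and 4 in males.

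Females were next set against chalimus. Among 23 members with 50 or more counts in either, 1 was at least 4-fold higher in females, against 8.89% of all contigs, and 13 (56.5%) were at least 4-fold lower, against 19.6% of all contigs. Here 12 of the 23 reached 50 counts in chalimus alone and 5 in females alone, and 11 of the 13 called lower had under 50 counts in females. The 56.5% thus rests mainly on members that entered the comparison through their chalimus count, which was the case for 3011 of the 22402 contigs tested, and it is not read against the background. The member higher in females was GAZX01039997, at 1.56 CPM in females and 0.206 CPM in chalimus, a 7.56-fold ratio (4.96 to 12.0). GAZX01015330 was the lowest, with 26 counts in females against 2363 in chalimus, and its chalimus level was 117-fold that of females (79.5 to 179). In GAZX01003625 there were 13 counts in females against 859 in chalimus, and the chalimus level was 84.9-fold that of females (49.4 to 160.1).

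Males were set against chalimus in the same way. Of 19 members with 50 or more counts in either, 1 was at least 4-fold higher than in chalimus, where 2.79% of all contigs were, and 8 (42.1%) were at least 4-fold lower, against 12.1% of all contigs. Of the 19, 6 reached 50 counts in chalimus alone and 1 in males alone, and 5 of the 8 called lower had under 50 counts in males. Among all contigs tested most, 18784 of 22033, reached 50 counts in both. The 42.1% is therefore not read against the background either. The median log2 ratio over all contigs was -0.33 with library totals, -0.14 with TMM and 0.06 with DESeq2 size factors. With DESeq2 size factors 1042 of all contigs were higher and 2168 lower in males than in chalimus, against 614 and 2660 with library totals. Both adult comparisons share the chalimus library, so their resemblance is no separate evidence. The member higher in males was GAZX01017231 (1022 nt), at 2.53 CPM in males and 0.464 CPM in chalimus, a 5.46-fold ratio (4.08 to 7.42). Its other levels were 2.84 CPM in egg, 111 CPM in copepodid and 0.0402 CPM in females. GAZX01020010 was the lowest, with 9 counts in males against 482 in chalimus, and GAZX01003625 followed with 18 against 859.

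Between the sexes the members were split. Of 18 members with 50 or more counts in either sex, 4 were at least 4-fold higher in females, against 18.8% of all contigs, and another 4 stood 4-fold or more lower in females, against 15.5%. Both member percentages were 22.2%, with a wide interval of 6.41% to 47.6%. All 8 reached 50 counts in the higher sex alone, whereas 17382 of the 21543 contigs tested reached 50 in both. The member percentages are thus not read against the background. The median log2 ratio of females over males over all contigs was 0.16 with library totals, 0.02 with TMM and -0.15 with DESeq2 size factors. Among the contigs that met the rule with DESeq2 size factors, 5 of 41 were higher and 15 lower in females, while all contigs split into 3259 higher and 4087 lower, against 4055 and 3337 with library totals. GAZX01036530 (2101 nt) had 102 counts in females and 0 in males. With 3 counts in place of the 0, it was 29.6-fold higher in females, a value without an interval. It had 3 counts in egg, 1412 in copepodid and 30 in chalimus. GAZX01039997 was 20.3-fold higher in females (10.8 to 42.9). GAZX01017231 had 6 counts in females against 330 in males, and the male level was 63.1-fold that of the female (28.7 to 173). GAZX01039573 had 2 counts in females against 64 in males, and the male level was 36.7-fold (9.76 to 310). The other members lower in females were its neighbours in the run, GAZX01039571 and GAZX01039572, with male levels 18.1-fold (9.27 to 40.4) and 15.5-fold (8.85 to 29.8) those of females. Counted singly, 3 of the 4 members lower in females thus came from 1 run of identifiers. Summing with a near-equal neighbour changed some calls. Females over males went from 1.08 to 0.0904 (0.0674 to 0.119) for GAZX01036334, and from 0.680 to 0.164 (0.150 to 0.179) for GAZX01024770. Both were then lower in females. GAZX01022736 stayed higher in females, at 18.1-fold (8.54 to 45.7).

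Among members whose highest other library was an adult, 3 had 50 or more counts there. GAZX01032547 (2099 nt) had 149 counts in egg, 5912 in copepodid, 213 in chalimus, 275 in females and 69 in males, so that chalimus and females were level at 1.83 and 1.84 CPM. GAZX01036530 has been given above. GAZX01024770 (1517 nt) had 72, 4445, 45, 71 and 91 counts in the same order, with males highest at 0.699 CPM. The other 8 of these 11 members had at most 0.307 CPM in their highest other library.

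The members were shorter than other contigs that were well counted in copepodids, but longer than the contigs nearly confined to copepodid. Their median length was 794 nt, with a middle range of 541 to 1421 nt. It was 1697 nt for the 7961 other contigs and 464 nt for the 1516 contigs with under 10 counts elsewhere. Of the members 13 (17.8%) were under 500 nt, against 3.62% of the other contigs and 57.5% of the contigs with under 10 counts elsewhere. Length itself was not a condition of the rule, although a minimum of counts favours long contigs. The minimum of 10 counts elsewhere leaves out the short contigs of copepodid alone. The greater length of the members than of those 1516 contigs thus follows in part from the rule.

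**Figure D4:**
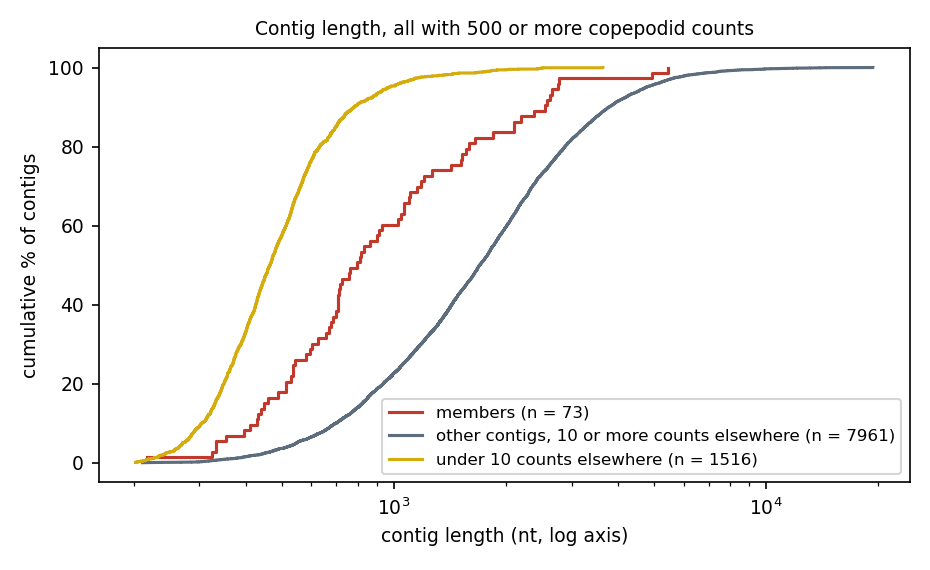
Cumulative percentage of contigs by contig length (log axis) for the 73 members, the 7961 other contigs and the 1516 contigs with under 10 counts elsewhere, all with 500 or more copepodid counts. The members' curve runs between the other curves, with medians of 794, 1697 and 464 nt for the 3 sets in that order.

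Length did not follow the share closely. Members with shares under 95% had a median of 817 nt and those at 95% or more 758.5 nt. The longest were GAZX01026212 (5435 nt, 3136 copepodid counts), GAZX01030094 (4931 nt, 2010 counts) and GAZX01034051 (2772 nt, 629 counts). Being long, they were low per length, at 7.28, 5.15 and 2.86 FPKM in copepodid. The shortest were GAZX01024140 (217 nt), GAZX01016873 (325 nt) and GAZX01008114 (332 nt), at 171, 21.9 and 44.5 FPKM in copepodid. GAZX01024140 had 42 counts in egg, 2948 in copepodid, 34 in chalimus, 1 in females and 0 in males. GAZX01024138, of the same length, narrowly missed the rule, as given above, and with its 2 near-equal neighbours summed GAZX01024140 had a share of 95.7%.

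Some members had a neighbour in the identifier series that altered their reading. Neighbouring identifiers of near-equal length may be variants of 1 transcript, although no sequence was used here to test that. A contig no more than 2 identifiers away and within 1% in length existed for 15 members (20.5%), against 13.5% of the 7961 other contigs. When counts of such neighbours were summed with the member, the copepodid share stayed at 90% or more for 4 members and fell below it for 11, with a median of 63.9% over the 15. This check and the next were chosen after the data were seen.

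GAZX01015330 and GAZX01015329, both 705 nt, show it at high counts. In copepodid they had 19378 and 12015 counts, in egg 267 and 7753, in chalimus 2363 and 16082, in females 26 and 23 and in males 57 and 59. The member thus took 61.7% of their shared copepodid counts and 10.2% of their counts elsewhere, and their summed copepodid share was 63.9%. GAZX01025107 (2372 nt) and GAZX01025106 (2373 nt) were more extreme. The member had 2135 counts in copepodid and its neighbour 21, but the member took 4.49% of their counts elsewhere. Their summed share was 31.6%.

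For the most abundant member the check changed little. GAZX01024317 and GAZX01024318 (716 nt) had a summed share of 92.2%, since the neighbour had 11 copepodid counts. GAZX01023302 and GAZX01023303 (2518 nt) were both nearly confined to copepodid, with 10802 and 2900 counts there and a summed share of 99.9%.

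Counts of the sexes also differed between files. The adult file of unstated sex has the same total as females and males together, so a contig that is lower there than in the sum of the sexes has counts that other contigs hold there. Summed over the 73 members, the counts were 6368 in that file against 7309 in the files of the sexes. Among members with 10 to 350 counts in the sexes together, 25 of 48 (52.1%) lost over 5% on recounting, against 18.2% of 555 other contigs in the same range, and 2 (4.17%) gained over 5%, against 14.4%. The 48 members held 3628 counts and the 555 other contigs 77775, so the members had fewer counts per contig. At low counts fewer reads pass a 5% limit, so the percentages are not a like comparison. Low adult counts of the members carry an uncertainty of assignment beside the counting error. For GAZX01032547 the change was -211 of 344 counts, and for GAZX01024317 it was -216 of 3605. GAZX01020010, GAZX01003625, GAZX01017231 and the run from GAZX01039571 to GAZX01039573 had a change of 0.

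In 11 members (15.1%) the lost or gained reads were mirrored, within 3 counts, by a contig no more than 3 identifiers away whose copepodid count was within 10%. Such a mirrored neighbour existed for 4.41% of the other contigs. These had changes from -22695 to 34508 counts, against -216 to 11 in the members. A limit of 3 counts is met more easily by small changes, so the percentages cannot be compared directly. GAZX01024770 and GAZX01024771, both 1517 nt, changed by -65 and 65 counts on recounting. In copepodid they had 4445 and 4418 counts, whereas the member had 279 of their 15922 counts elsewhere. GAZX01022736 and GAZX01022737, both 1268 nt, had 4078 and 4171 counts in copepodid but 216 and 10003 in egg. In chalimus they had 44 and 38, in females 65 and 80 and in males 4 and 3, so their counts were uneven in egg only.

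GAZX01021715 and GAZX01021716, both 1107 nt, had 2709 and 2811 counts in copepodid, 12 and 1584 in egg and 9 and 9314 in chalimus. GAZX01030503 and GAZX01030505, both 2576 nt, had 957 and 944 in copepodid, and the member had 51 of their 29436 counts elsewhere. Over the 11 pairs the member took 48.3% to 51.5% of the copepodid counts, which the choice of pairs fixes near 50%, and 0.173% to 3.15% of the counts elsewhere. Their summed copepodid shares ran from 6.0% (GAZX01025878 with GAZX01025879) to 60.2% (GAZX01027011 with GAZX01027012).

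**Figure D5:**
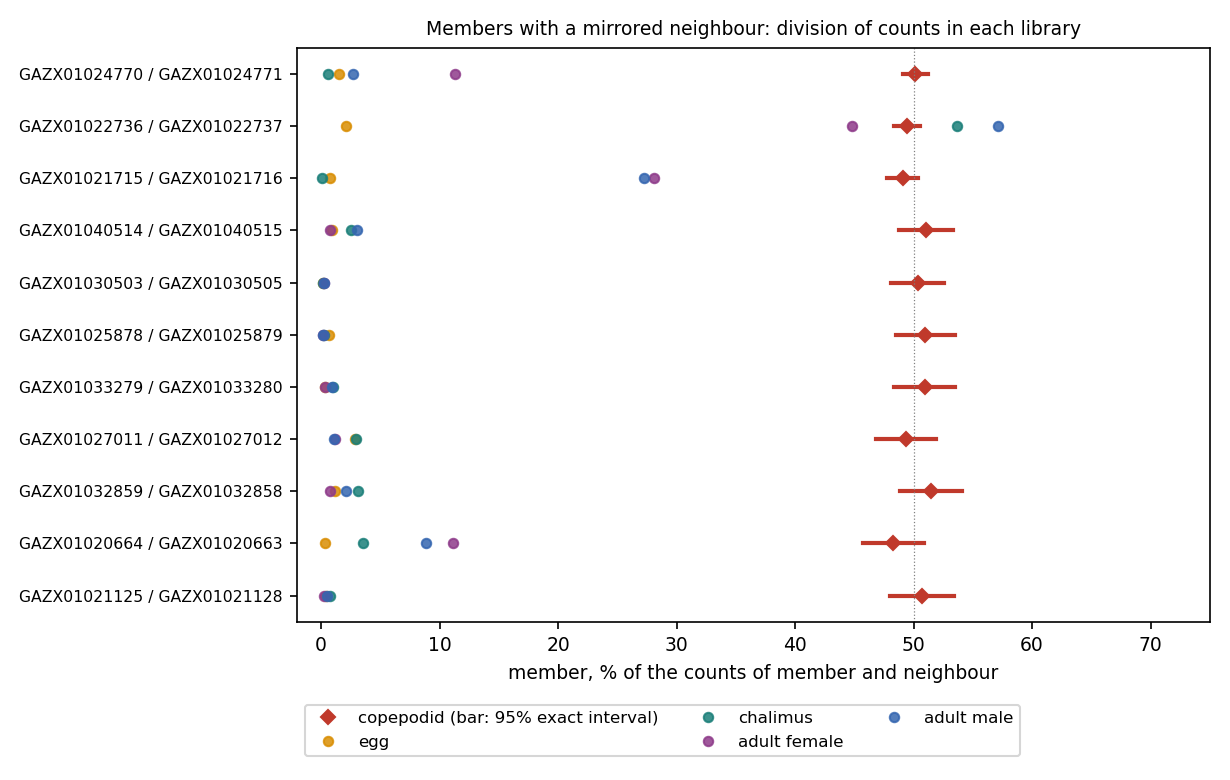
For each of the 11 members with a mirrored neighbour, the member's percentage of the counts of both contigs in each library. Red diamonds, with 95% exact intervals, are copepodid and lie from 48.3% to 51.5%, which the choice of pairs fixes. Circles are the other libraries and lie mostly under 5%, except for GAZX01022736, GAZX01021715, GAZX01024770 and GAZX01020664.

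Near-equal neighbours were also looked at over the whole table. Of 541 pairs of near-equal neighbours with 1000 or more counts in each library, copepodid divided 186 between 45% and 55%, against 112 for egg, 113 for chalimus, 124 for females and 114 for males. Very uneven division was also most frequent in copepodid. The lesser contig held under 5% in 170 pairs there, against 121 in egg, 97 in chalimus, 122 in females and 118 in males. Only 5 of the 541 pairs held a member. Nothing read here states whether copepodid reads were counted like the others, and the part of this division in the members' shares was not tested. Summed with a near-equal or a mirrored neighbour, 16 of the 73 members fell under 90%, of which 1, GAZX01015330, was among the 10 most abundant. The other 57 members either had no such neighbour or stayed at 90% or more with it. In those 57, egg was the highest other library for 33 and chalimus for 17, close to the proportions of the full set.

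Across the 73 members the copepodid level was moderately ordered with the egg level (Spearman's rho 0.55) and less with chalimus (0.43), females (0.32) and males (0.28). Egg and chalimus had a rho of 0.56 and the sexes 0.56. The rule limits a member's level elsewhere to a small part of its copepodid level, which favours a positive rho with copepodid. How much of each rho the choice of members sets was not tested. The order of the libraries is not read either, since fewer members were well counted in the adults than in egg. All these rho values are descriptions over contigs of the same libraries, many with few counts, and contigs are not independent replicates.

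Identifiers next to a member, with other members left out, were not generally concentrated in copepodid. There were 140 of them, of which 96 had 50 or more copepodid counts, and 19 of those (19.8%) had a share of 90% or more. The same percentage over all contigs with 50 or more copepodid counts was 29.3%. Neither percentage sets a minimum of counts elsewhere, and 11 of the 19 had 0 counts there. Contigs of copepodid alone, which the rule leaves out of the members, thus enter both. The figure over all contigs also includes the members, so it is not a like comparison.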

How the data were processed

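The authors deposited, per the file headers, a count and an FPKM for each contig in each of 6 files. The deposited counts are whole numbers without normalisation. The FPKM values deposited by the authors were rounded to 3 decimals. For the aligner, the counting tool, the assembly and reads that match several contigs, details were not given in the sources used here.

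CPM were counts over the file total. Contig lengths were recovered from counts and FPKM, which gave whole numbers within 0.05 nt for 100% of the contigs above 300 FPKM. For the members the rounding allows at most 0.485 nt. The copepodid FPKM imply a total of which 1.08% is missing from the rows.

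Between 2 libraries a contig was called at a 4-fold ratio of CPM with 50 or more counts in the higher library, with 3 counts in place of 0. Alternatives used edgeR 4.0.16 (TMM), DESeq2 1.42.0 size factors, other limits, and neighbours summed. Scripts were tested on simulated data. Tools were R 4.3.3, Python 3.11.15, SciPy 1.17.1 and matplotlib 3.10.9.

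Named contigs were the 10 members highest in copepodid CPM and 5 in FPKM, the 3 highest and 3 lowest shares and the 3 just outside, the 3 longest and 3 shortest, the 3 highest by other library with 50 or more counts, up to 3 runs of consecutive identifiers, and the 2 largest and 2 smallest ratios in each pair that were called. Others, with their neighbours, were chosen after their values were seen. The members and lists were chosen with earlier results of these data known.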

Additional observations from a re-analysis of the deposited data

How the results depend on the processing

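Of 167 alternative values 140 stayed within the interval of the value reported, or within 1.5 times a count, and 27 did not. The number of members, 73, became 123 with TMM, 128 with DESeq2 size factors, 163 at a share of 80%, 34 at 95%, 142 at 100 copepodid counts, 1589 with no minimum elsewhere and 46 among contigs stable on recounting (within 5% or 2 counts). Their part of the copepodid counts, 0.493%, became 1.11% with TMM, 1.15% with DESeq2, 0.527% with totals lacking the contigs of copepodid alone, 1.93% at 80%, 0.191% at 95%, 0.515% at 100 counts, 0.376% at 50 counts elsewhere, 3.90% with no minimum, 0.262% among stable contigs, 0.433% when members under 90% with a neighbour were left out and 0.356% without GAZX01024317, both of which were chosen after seeing the data. The median length became 659 nt at 100 counts, 471 nt with no minimum elsewhere and 682 nt among stable contigs. At a share of 95% none of 6 members was higher in chalimus than in egg (0%), none of 6 in females than in chalimus (0%) and none of 5 in males than in chalimus (0%). With a 2-fold rule 24.1% of the members were higher and 48.3% lower in chalimus than in egg, against 24.4% and 28.6% of all contigs. Among stable contigs 50% (4 of 8) were lower in females than in males. The causes of these moves were not tested, beyond the smaller or larger sets that each setting makes. No paired analysis was possible because each group has 1 library. Few counts limit the values outside copepodid: 10 counts were reached by 60 members in egg, 49 in chalimus, 31 in females and 36 in males. No spread between animal pools could be had.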
